A study of Alligator mississippiensis with 4 samples.

Results

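Solute carriers (SLC genes) are membrane proteins that move amino acids, sugars, metals, ions, vitamins and lipids into and out of cells and organelles. The gene name gives the family and the member, so that SLC6A4 is the fourth member of family 6, and a family is defined by sequence and usually shares a type of substrate. Some families sit in the plasma membrane and set what a cell takes up. Most SLC25 members serve the inner mitochondrial membrane, and SLC35 supplies nucleotide sugars to the Golgi apparatus, where the matrix proteins of dermis are glycosylated. The rows described here were all those of the alligator dermis expression table whose symbol began with SLC, a family number and a letter, without SLC4A1, the anion exchanger of red blood cells. They numbered 161 of 10466 rows and carried 159 symbols from 42 families, of which 15 families had 1 row. SLC6A8 and SLC25A22 each had 2 rows. Of the 161 rows, 157 name carriers, while SLC9A3R1 and SLC9A3R2 are scaffold proteins that bind carriers and SLC4A1AP and SLC7A6OS are named only for a partner or a neighbour.

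The 4 libraries came from overlapping scales of untreated embryos of the American alligator, from fertilized eggs, with the dermis separated from the epidermis. There was 1 library of dorsal and 1 of ventral dermis at embryonic stage Es19, when scale placodes form, and 1 of each at Es22, when scale buds form. The samples carried no genetic change, and neither the number nor the age in days of the embryos behind a library is given in the labels. The level of a gene is given in CPM, read counts scaled by the authors for library size and by TMM factors. It is not divided by gene length, so each gene is followed across libraries and levels are not compared between genes. Where 4 levels of a gene stand together in library order, the dorsal and then the ventral Es19 library come first, followed by the dorsal and then the ventral Es22 library.

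The libraries held 10722075 to 13220853 reads in the table, and 1 read was worth 0.0679 to 0.103 CPM. COL1A1 and COL1A2, the type I collagen chains of dermal fibroblasts, took 10.98 to 33.4% of the reads, and 11 of 13 listed dermal fibroblast genes had a row and were above 0 reads in every library. The summed levels of several other cell types were higher at Es22, while that of 7 cartilage and bone genes was slightly lower in both regions (638, 489, 602 and 480 CPM in library order) and that of 5 pericyte and smooth muscle genes was higher at Es22 in dorsal dermis alone (141, 210, 202 and 203 CPM). The summed level of 9 red blood cell genes went from 886 CPM in Es19 dorsal and 3198 CPM in Es19 ventral to 10534 CPM in Es22 dorsal and 12651 CPM in Es22 ventral dermis. The 9 epidermal genes with a row summed to 41.02 and 43.3 CPM at Es19 and to 952 CPM (dorsal) and 232 CPM (ventral) at Es22. Skeletal muscle genes (13 of 25 listed) summed to 234, 293, 559 and 1862 CPM in library order, and none of the listed markers with a row was at 0 reads in any library. The part of these cells in the SLC values was not tested, and in bulk tissue fewer cells of a type cannot be told apart from less RNA per cell.

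Of the 161 rows, 159 reached the mean of 1 CPM required for testing, as did 10236 of all 10466 rows. The rows below it were SLC37A4, the glucose-6-phosphate carrier of the endoplasmic reticulum, and SLC45A4. None was at 0 reads in any library, and 110 had a mean of at least 10 CPM. The gene set of the alligator assembly rAllMis1 in RefSeq holds 310 protein-coding symbols chosen by the same rule, of which 140 had a row here. The other 170, among them the glucose carrier SLC2A1 and the lactate carriers SLC16A1 and SLC16A3, were not analysed here, so no family is described in full. Of the 159 symbols measured, 19 were not matched in that gene set, and their identity rests on the authors' symbol. Those named in this text are SLC2A3, SLC2A4, SLC6A3, SLC6A13, SLC22A3, SLC47A2, SLC52A1 and the scaffolds SLC9A3R1 and SLC9A3R2.

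The SLC rows together took 0.830% of the reads of Es19 dorsal dermis, 0.889% of Es19 ventral, 0.596% of Es22 dorsal and 0.662% of Es22 ventral dermis. On the normalized scale their sum was nearly level, at 7516, 6986, 7569 and 7321 CPM in the same order. The whole table summed to 905638, 785850, 1270170 and 1106230 CPM in that order. A share of reads and a CPM sum therefore need not move together. SLC25A3, the mitochondrial phosphate carrier, and SLC25A5 and SLC25A6, which exchange ADP for ATP across the inner mitochondrial membrane, made up 22.9 to 29.3% of that sum. The level of SLC25A6 was 975, 987, 1063 and 887 CPM in library order. SLC25A3 was at 532, 537, 469 and 412 CPM and SLC25A5 at 492, 521, 479 and 377 CPM. The lowest value of all 3 was that of Es22 ventral dermis. SLC25A4, SLC25A5 and SLC25A6 have nearly the same sequence, and the counting of reads shared between them is not given in the sources used.

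The question asked of each gene was whether it differed between dorsal and ventral dermis or between stages. Differences are given on the scale of log2(CPM + 1), which understates the change of genes at a few CPM. Each 2-fold limit uses the same scale, so a gene at a few CPM can pass 2-fold in CPM and be counted within it. With 1 library for each region and stage, the test (limma, with region and stage as terms) took the disagreement of the stages, or of the regions, as its error, and its p-values do not measure spread between animals. The median difference of dorsal over ventral over the 159 tested rows was 0.07 at Es19 and -0.01 at Es22, beside -0.00 and -0.01 over all rows. The median difference of Es22 over Es19 was 0.05 in dorsal and 0.07 in ventral dermis, beside -0.01 and 0.01 over all rows. In all 4 comparisons 133 of the 159 rows, or 83.6%, stayed within 2-fold, as did 83.1% of all rows. By these medians and this share SLC genes as a class lay close to the rest of the table. The region difference had the same direction at both stages in 61.0% of SLC rows, beside 49.8% of all rows. The stage difference had the same direction in both regions in 76.7%, beside 67.7% of all rows. These shares were not tested, and the following values concern single genes.

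Stage gave 3 calls among the SLC genes with limma. SLC2A10 and SLC39A8 rose and SLC16A4 fell from Es19 to Es22 (adjusted p under 0.05 over all rows), which is 3 of 159 rows beside 3.13% of all rows. By direction, 2 rose beside 2.66% of all rows and 1 fell beside 0.469%. The unadjusted p was under 0.05 for 36 of the 159, or 22.6% beside 20.6% of all rows. The calls were lost when region was left out of the fit, which gave 0. With 1 library left out as well as the second term, so that both changed together, leaving out the Es22 dorsal or the Es22 ventral library gave 0 calls, without Es19 ventral SLC39A8 was the 1 call, and without Es19 dorsal the 1 call was SLC6A4. With a pseudocount of 5 SLC16A4 alone was called.

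SLC16A4 belongs to the monocarboxylate carrier family, whose best known members move lactate and pyruvate. Its level was 32.7 CPM (dorsal) and 43.7 CPM (ventral) at Es19, against 11.8 and 16.9 CPM at Es22. Both Es19 libraries were above both Es22 libraries. The level at Es19 was 2.77 times that at Es22 in dorsal dermis (95% interval 2.26 to 3.42) and 2.58 times in ventral dermis (2.17 to 3.08). These intervals, and those that follow, are exact binomial intervals that cover counting error only. The fitted difference of Es22 over Es19 was -1.36 ± 0.19 (SE) in log2, with a limma adjusted p of 0.028, and SLC16A4 was lower at Es22 in both regions. SLC16A4 was also the 1 SLC row at least 2-fold lower at Es22 in both regions, beside 0.537% of all rows. That count used log2(CPM + 1), and with a pseudocount of 0.1 SLC8A3 and SLC35G2 also passed.

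None of the other family 16 rows was called by stage with limma or edgeR, beside 3.13% and 5.03% of all rows. SLC16A10, a carrier of aromatic amino acids, was at 18.5 and 23.7 CPM (dorsal, ventral) at Es19, against 42.9 and 37.97 CPM at Es22 (log2 difference 0.92, limma adjusted p = 0.081). SLC16A6 was at 11.6, 11.9, 5.67 and 9.29 CPM in library order. It overlaps AMZ2 in rAllMis1, which was at 17.6, 17.4, 21.9 and 23.5 CPM. BSG (basigin), the accessory chain that brings several lactate carriers to the membrane, was at 224 and 197 CPM at Es19 and 170 and 192 CPM at Es22 (adjusted p = 0.50). None of 12 glycolysis genes with a row was called by stage or region with limma, beside 3.13% and 0.234% of all rows.

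SLC39A8 (ZIP8) brings zinc, manganese and other divalent metals into the cytosol. It was at 1.32 CPM (dorsal, 17 reads) and 2.99 CPM (ventral, 44 reads) at Es19, against 12.8 CPM (133 reads) and 10.6 CPM (103 reads) at Es22. The lower Es22 library was above the higher Es19 library, and the rise was 9.71-fold in dorsal dermis (95% interval 5.84 to 17.2) and 3.56-fold in ventral dermis (2.48 to 5.19). The fitted log2 difference was 2.06 ± 0.33 (SE), with a limma adjusted p of 0.037, and SLC39A8 was higher at Es22 in both regions. SLC30A10, which exports manganese from the cell in mammals, was higher at Es22 as well. Its level was 2.55 and 4.34 CPM at Es19 and 8.45 and 10.3 CPM at Es22 in dorsal and ventral dermis, 3.31-fold (2.20 to 5.10) and 2.38-fold (1.72 to 3.304) apart. Its limma adjusted p of 0.068 missed the threshold at a log2 difference of 1.25 ± 0.26 (SE).

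The other 16 metal carrier rows stayed within 2-fold between stages on the log2(CPM + 1) scale, as did most of all rows. Over the 18 metal carrier rows the median difference of Es22 over Es19 was 0.23 in dorsal and 0.21 in ventral dermis. Over all rows it was -0.01 and 0.01. In each region 16 of 18, or 88.9%, stayed within 2-fold, beside 89.4% of all rows in dorsal and 92.5% in ventral dermis. SLC39A7 (ZIP7), which releases zinc from the endoplasmic reticulum, was at 355, 258, 362 and 383 CPM in library order. It overlaps HSD17B8 in rAllMis1, which was at 99.8, 93.4, 78.5 and 86.8 CPM. SLC39A10, a zinc importer of the plasma membrane, was at 101.1, 77.4, 97.5 and 89.3 CPM, and SLC39A9 was at 79.6, 66.4, 94.1 and 80.0 CPM. For all 3 genes the lowest library was Es19 ventral. Of 10 genes of iron, zinc and copper handling with a row, limma called 1 by stage, beside 3.13% of all rows. It was FTH1, the heavy chain of the iron store ferritin. FTH1 rose from 391 and 585 CPM at Es19 to 1036 and 1138 CPM at Es22 (log2 difference 1.18, limma adjusted p = 0.037).

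SLC2A10 (GLUT10) is a facilitative carrier of family 2 in which loss of function causes arterial tortuosity syndrome, a disorder of connective tissue in humans. Its level was 67.1 CPM (dorsal) and 54.96 CPM (ventral) at Es19, against 134 and 105 CPM at Es22. The rise was 1.99-fold in dorsal (95% interval 1.83 to 2.17) and 1.91-fold in ventral dermis (1.74 to 2.102), and both Es22 libraries were above both Es19 libraries. The fitted log2 difference was 0.95 ± 0.14 (SE), with a limma adjusted p of 0.034. In rAllMis1 the gene overlaps TP53RK, and the library kit did not mark strand, so reads of the overlap cannot be told apart. TP53RK itself was at 28.7, 31.6, 31.99 and 26.9 CPM in library order.

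The other hexose carriers of family 2 were not called. SLC2A4 was at 29.3, 29.6, 32.5 and 37.9 CPM and SLC2A8 at 33.6, 34.3, 28.1 and 30.8 CPM in library order. SLC2A3 (GLUT3), a high-affinity glucose carrier, was at 1.08 CPM in Es19 dorsal dermis and at 3.39, 3.36 and 5.26 CPM in the other libraries in that order.

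SLC22A3, a carrier of organic cations such as monoamines, was the third gene that passed 2-fold upwards at Es22 in each region, with SLC39A8 and SLC30A10. These 3 rows stood beside 3.26% of all rows and were counted on log2(CPM + 1). With a pseudocount of 0.1 SLC10A4, SLC25A4, SLC35F4 and SLC9A2 also passed. SLC22A3 was at 1.70 CPM (dorsal, 22 reads) and 5.77 CPM (ventral, 85 reads) at Es19, against 8.93 CPM (93 reads) and 14.2 CPM (138 reads) at Es22. The rise was 5.25-fold in dorsal (95% interval 3.27 to 8.77) and 2.47-fold in ventral dermis (1.87 to 3.27). The limma adjusted p was 0.054 at a log2 difference of 1.52 ± 0.29 (SE), whereas edgeR on the recovered reads gave an adjusted p of 0.043. At each stage ventral dermis was above dorsal dermis, 3.39-fold at Es19 (2.0995 to 5.69) and 1.59-fold at Es22 (1.22 to 2.096).

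**Figure D1:**
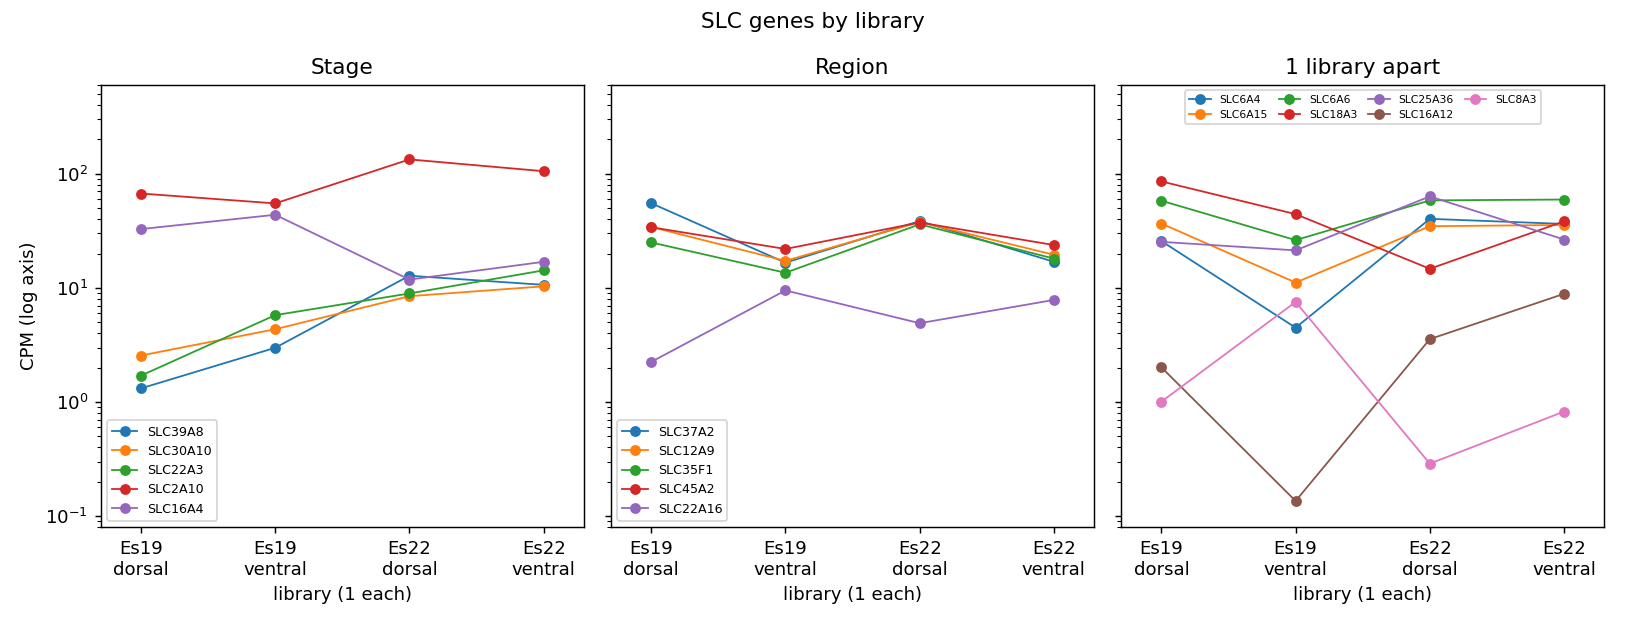
Level of 17 SLC genes in each of the 4 libraries, in CPM on a log axis, with 1 point for each library and a line joining the points of a gene. The left panel shows genes named for stage, with SLC16A4 lower and the other 4 higher at Es22, the middle panel genes named for region, and the right panel genes in which 1 library stood apart, such as SLC6A4 in Es19 ventral dermis.

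The edgeR test on recovered reads called 10 SLC rows by stage, or 6.29% beside 5.03% of all rows, which were the same 3 genes and 7 more. SLC9A9, a sodium-proton exchanger of endosomes, was at 28.02 and 25.6 CPM at Es19 and 55.05 and 47.5 CPM at Es22, 1.96-fold (95% interval 1.72 to 2.25) and 1.85-fold (1.62 to 2.13) higher. SLC25A12 (aralar), the aspartate-glutamate carrier of mitochondria, was at 25.2 and 23.3 CPM at Es19 and 49.2 and 39.3 CPM at Es22. SLC35E2B, an orphan of the nucleotide-sugar family, was at 75.9 and 76.4 CPM at Es19 and 125 and 131 CPM at Es22. In each of these the 2 Es19 values were close and both Es22 values lay above them.

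The other genes called by edgeR alone included the scaffold SLC9A3R2, at 44.3, 51.4, 76.8 and 92.3 CPM in library order. SLC20A1 (PIT1), the sodium-phosphate cotransporter, fell, from 245 and 267 CPM at Es19 to 105 and 170 CPM at Es22 in dorsal and ventral dermis. Its level at Es19 was 2.34 times that at Es22 in dorsal (95% interval 2.18 to 2.51) and 1.57 times in ventral dermis (1.48 to 1.66), with an edgeR adjusted p of 0.041 and a limma adjusted p of 0.060. SLC8A3, a sodium-calcium exchanger best known in muscle and brain, also fell with edgeR and is described with the libraries that stood apart. Of the 7 genes, SLC22A3, SLC9A9, SLC25A12, SLC35E2B and SLC9A3R2 rose.

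Region gave 0 calls among the 159 SLC rows with limma, beside 0.234% of all rows, and 0 with edgeR, beside 0.44% of all rows. The unadjusted p was under 0.05 for 20 rows with limma, or 12.6% beside 7.55% of all rows, and for 21 with edgeR, or 13.2% beside 8.1%. SLC37A2, a sugar-phosphate exchanger, was the 1 row past 2-fold towards dorsal dermis at both stages, beside 0.596% of all rows. No SLC row passed 2-fold towards ventral dermis at both stages, beside 0.469% of all rows. Both counts used log2(CPM + 1). With a pseudocount of 0.1 SLC45A1 also passed towards dorsal dermis, and 2 rows that included SLC8A3 passed towards ventral dermis.

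SLC37A2 was at 55.2 CPM (dorsal) and 16.6 CPM (ventral) at Es19, against 38.5 and 16.9 CPM at Es22. Both dorsal libraries were above both ventral libraries, 3.32-fold at Es19 (95% interval 2.87 to 3.85) and 2.28-fold at Es22 (1.89 to 2.75). The log2 difference of dorsal over ventral was 1.41 ± 0.21 (SE), with an adjusted p of 0.11 by limma and 0.051 by edgeR. SLC12A9, of the cation-chloride cotransporter family, showed the same order below the 2-fold line on this scale. It was at 34.2 and 17.2 CPM at Es19 and 37.8 and 19.5 CPM at Es22 in dorsal and ventral dermis, 1.98-fold (1.70 to 2.32) and 1.94-fold (1.62 to 2.32) apart. SLC35F1 was at 24.999 and 13.6 CPM at Es19 and 36.03 and 18.1 CPM at Es22, with dorsal above ventral in each pair. Limma gave an adjusted p of 0.21 for SLC12A9 at a log2 difference of 0.93 and 0.26 for SLC35F1 at 0.90. Both genes were higher in dorsal dermis at both stages.

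Among carriers of pigment cells SLC45A2 lay higher in dorsal dermis at each stage but was not called. SLC45A2 acts in the melanosome, the pigment organelle, and was at 33.98 CPM (dorsal) and 21.9 CPM (ventral) at Es19, against 37.4 and 23.7 CPM at Es22. The ratio of dorsal to ventral was 1.55 (95% interval 1.34 to 1.79) at Es19 and 1.58 (1.34 to 1.86) at Es22, with a limma adjusted p of 0.41. SLC24A5, also of the melanosome, was at 14.1, 12.49, 14.5 and 11.7 CPM in library order, and it overlaps MYEF2 in rAllMis1. The 6 listed melanocyte genes with a row summed to 238 CPM (dorsal) and 128 CPM (ventral) at Es19, against to 567 and 181 CPM at Es22, and their part in these values was not tested. TYRP1, a melanin enzyme among them, was called by region with limma (adjusted p = 0.031 at a log2 difference of 3.26, higher in dorsal dermis at both stages).

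In single comparisons with 1 library on each side, the SLC rows past 2-fold were few and close in share to all rows. At Es19, 5 rows were higher in dorsal dermis beside 2.57% of all rows and 4 in ventral dermis beside 2.84%. At Es22, 5 were higher in dorsal dermis beside 2.69% and 3 in ventral dermis beside 1.94%. From Es19 to Es22, 9 rows were higher in dorsal dermis beside 8.15% of all rows and 4 were lower beside 2.4%. In ventral dermis 10 were higher beside 5.74% and 2 were lower beside 1.74%.

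**Figure D2:**
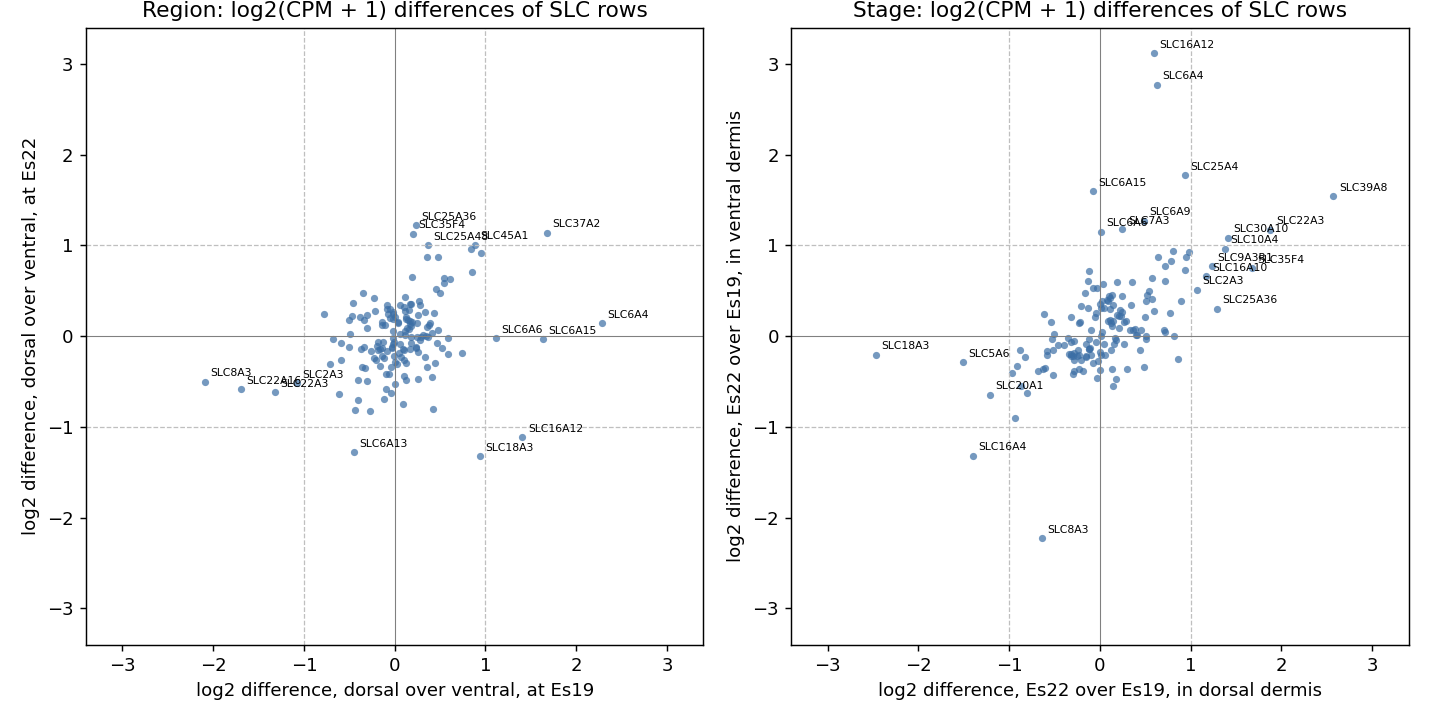
Log2(CPM + 1) difference of each of the 159 tested SLC rows, with dorsal over ventral dermis at Es19 against Es22 on the left and Es22 over Es19 in dorsal against ventral dermis on the right. Dashed lines mark 2-fold and genes past them in either comparison are named. SLC37A2 lies past 2-fold towards dorsal dermis at both stages, SLC16A4 lies past 2-fold downwards in both regions, and SLC16A12 has opposite directions at the 2 stages.

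Several genes rested on 1 library that stood at least 2-fold from each of the other 3, a description chosen after the values were seen. Es19 ventral dermis was the low library for 4 SLC rows, beside 1.06% of all rows, and 3 of these belong to family 6, whose members use sodium and chloride to take up amino acids, taurine, creatine and neurotransmitters. SLC6A4, the serotonin transporter, was at 4.48 CPM (66 reads) in Es19 ventral dermis and at 25.7, 40.3 and 36.3 CPM in the dorsal Es19, dorsal Es22 and ventral Es22 libraries. At Es19 dorsal was 5.74 times ventral dermis (95% interval 4.39 to 7.59), and at Es22 the ratio was 1.11 (0.960 to 1.28), an interval that includes 1.

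SLC6A15, a carrier of branched-chain amino acids and proline, was at 11.1 CPM in Es19 ventral dermis and at 36.6, 34.7 and 35.6 CPM in the dorsal Es19, dorsal Es22 and ventral Es22 libraries. SLC6A6, the taurine transporter, was at 26.2 CPM in Es19 ventral and at 58.1, 58.4 and 59.4 CPM in the same other libraries. Both genes were level in the other 3 libraries. SLC6A9, a glycine transporter, and SLC7A3, a carrier of arginine and lysine, had their lowest value in the same library without reaching 2-fold from each other library. SLC6A9 was at 47.1, 31.1, 66.4 and 76.6 CPM and SLC7A3 at 79.9, 47.3, 95.1 and 108 CPM in library order.

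Other rows of family 6 varied in which library was lowest. SLC6A3, the dopamine transporter, was at 28.2, 38.5, 18.5 and 33.3 CPM in library order, and SLC6A13, a carrier of GABA and taurine, was at 2.17, 3.32, 1.92 and 6.09 CPM. In both genes the ventral library was above the dorsal one at each stage. The rows of SLC6A8, the creatine transporter, were at 173, 159, 97.1 and 136 CPM and at 148, 117, 144 and 169 CPM, lowest in Es22 dorsal and in Es19 ventral dermis. Over the 8 rows of family 6 the dorsal over ventral difference had a median of 0.46 at Es19 and -0.22 at Es22. The median difference of Es22 over Es19 was -0.06 in dorsal and 0.93 in ventral dermis. Over all rows these medians were -0.00, -0.01, -0.01 and 0.01 in the same order. The family medians include SLC6A4, SLC6A15 and SLC6A6, picked above for a low Es19 ventral value, so they partly restate that choice.

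SLC16A12, a creatine carrier of family 16, was the fourth row for which Es19 ventral dermis was the low library. It was at 2.01 CPM (dorsal, 26 reads) and 0.136 CPM (ventral, 2 reads) at Es19, against 3.55 CPM (37 reads) and 8.87 CPM (86 reads) at Es22. It was higher in dorsal dermis at Es19, with a ratio of 14.8 (95% interval 3.71 to 129), and higher in ventral dermis at Es22, with a ratio of 2.50 (1.68 to 3.78). It was the 1 SLC row at least 2-fold apart in opposite directions at the stages, beside 0.147% of all rows, and no SLC row was so by stage, beside 0.117%. Its Es22 ventral value was also the highest by 2-fold, 1 row beside 0.782% of all rows, and no SLC row had its lowest value there by that margin, beside 0.0782%.

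SLC8A3 stood out upwards in Es19 ventral dermis, as 1 row beside 0.606% of all rows. It was at 7.53 CPM (111 reads) there and at 1.01, 0.288 and 0.825 CPM (13, 3 and 8 reads) in the dorsal Es19, dorsal Es22 and ventral Es22 libraries. At Es19 ventral was 7.49 times dorsal dermis (95% interval 4.20 to 14.5). SLC2A3 and SLC22A3 had their low library in Es19 dorsal dermis, 2 rows beside 1.11% of all rows, and no SLC row was highest there by 2-fold, beside 0.215%. SLC22A16, a carnitine carrier, was lowest in Es19 dorsal dermis as well, at 2.24 CPM beside 9.50, 4.90 and 7.84 CPM in the other libraries in their order, and at Es19 ventral was 4.23 times dorsal dermis (2.82 to 6.55).

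Es22 dorsal dermis was the low library for SLC18A3, 1 row beside 0.371% of all rows. SLC18A3 loads acetylcholine into the vesicles of nerve endings. It was at 85.7 CPM (dorsal) and 44.2 CPM (ventral) at Es19, against 14.7 CPM (dorsal) and 38.3 CPM (ventral) at Es22. Dorsal was 1.94 times ventral dermis at Es19 (95% interval 1.76 to 2.14), while at Es22 ventral was 2.60 times dorsal dermis (2.15 to 3.17). The 8 listed Schwann cell and neuron genes with a row summed to 350, 266, 494 and 443 CPM in library order, a sum in which PMP22 was the highest gene at 217, 163, 386 and 346 CPM. Among the neuronal genes of the list NEFH was lowest in Es22 dorsal dermis, as was SLC18A3, at 38.4, 31.96, 17.5 and 28.1 CPM. NEFM was lowest in Es22 ventral dermis instead, at 41.9, 27.01, 16.1 and 11.97 CPM. STMN2, at 0.0774, 2.104, 0.192 and 2.27 CPM in library order (1, 31, 2 and 22 reads), was lowest in Es19 dorsal dermis. SLC18A3 was highest in that library. The part of nerve in the SLC18A3 values was not tested.

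SLC5A6, the sodium-dependent multivitamin transporter, was at 127, 94.3, 43.9 and 77.2 CPM in library order, again lowest in Es22 dorsal. It overlaps ATRAID in rAllMis1, which was at 39.7, 38.7, 42.0 and 42.3 CPM. SLC4A7, a sodium-bicarbonate cotransporter, was at 49.997, 60.5, 24.98 and 45.2 CPM, with its lowest value in the same library. At Es19 the level of SLC5A6 in dorsal dermis was 2.88 times that at Es22 (95% interval 2.60 to 3.20), and in ventral dermis 1.22 times (1.12 to 1.34).

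SLC25A36, a pyrimidine nucleotide carrier of mitochondria, and SLC35F4 were highest in Es22 dorsal dermis, 2 rows beside 1.74% of all rows. SLC25A36 was at 25.3, 21.3 and 26.5 CPM in Es19 dorsal, Es19 ventral and Es22 ventral dermis and at 63.3 CPM in Es22 dorsal dermis. At Es22 dorsal was 2.39 times ventral dermis (95% interval 2.06 to 2.77). SLC35F4 was at 1.24, 0.94997, 6.15 and 2.27 CPM in library order, which is 16, 14, 64 and 22 reads.

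The same library was high for SLC7A5, the light chain of the main carrier of large neutral amino acids, and for its heavy chain SLC3A2. SLC7A5 was at 22.5, 17.4, 39.3 and 20.9 CPM and SLC3A2 at 86.0, 79.3, 131 and 96.5 CPM in library order. Limma gave adjusted p = 0.25 for SLC7A5 and 0.20 for SLC3A2 by stage, at log2 differences of 0.51 and 0.44, higher at Es22 in both regions. The other light chains did not have their highest value in that library. SLC7A8 was at 46.05, 42.7, 29.5 and 33.02 CPM, SLC7A6 at 13.4, 15.5, 10.8 and 11.7 CPM and SLC7A7 at 0.929, 1.90, 2.59 and 2.79 CPM in that order.

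Of 16 genes of the amino acid response and of serine synthesis with a row, limma called PHGDH, PSAT1 and ALDH1L2 by stage, all higher at Es22. By stage limma called 3.13% of all rows. PHGDH, the first enzyme of serine synthesis, was at 462 CPM (dorsal) and 214 CPM (ventral) at Es19, against 917 and 479 CPM at Es22 (adjusted p = 0.031). PSAT1, the next enzyme of that pathway, was at 17.3, 7.06, 42.2 and 16.1 CPM in library order (adjusted p = 0.046), and was at least 2-fold higher in dorsal dermis and at Es22 in both comparisons. ALDH1L2, a mitochondrial folate enzyme, was at 154, 108, 287 and 207 CPM (adjusted p = 0.034). The amino acid group followed family numbers, so its 29 rows included SLC7A6OS, which is no carrier, and SLC6A4, but not SLC16A10. None of these 29 rows was called by limma or edgeR in the fit of all 4 libraries. By stage this stood beside 3.13% of all rows with limma and 5.03% with edgeR. At such shares, 0 calls among 29 rows does not set this group apart from the table. ATF3, a transcription factor of the response, was 2-fold higher at Es22 in both regions at 1.78, 4.55, 4.71 and 11.7 CPM (adjusted p = 0.083).

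Among other carriers outside the naming rule, 9 of 25 listed had a row. Of these 2 were called by limma by stage, beside 3.13% of all rows. RHAG, an ammonia channel of the red blood cell membrane, rose from 3.02 and 10.3 CPM at Es19 to 35.5 and 45.6 CPM at Es22 (adjusted p = 0.024). SLCO2B1, a carrier of steroid conjugates and other organic anions, rose from 59.1 and 34.5 CPM to 110 and 76.5 CPM (adjusted p = 0.036). RHAG moved in the direction of the summed red blood cell genes, of which it is one.

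By substrate the groups differed little in their medians. The median difference of Es22 over Es19 in dorsal dermis lay between -0.10, for 19 carriers of organic ions, vitamins and nucleosides, and 0.23, for the metal carriers. In ventral dermis it lay between -0.13, for the same 19 rows, and 0.28, for the 29 rows of the amino acid group. The median difference of dorsal over ventral lay between -0.02 and 0.22 at Es19 and between -0.15 and 0.23 at Es22. All groups follow family numbers, so the sugar group holds SLC5A6, which carries vitamins, and the amino acid group holds SLC7A6OS, which is no carrier.

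**Figure D3:**
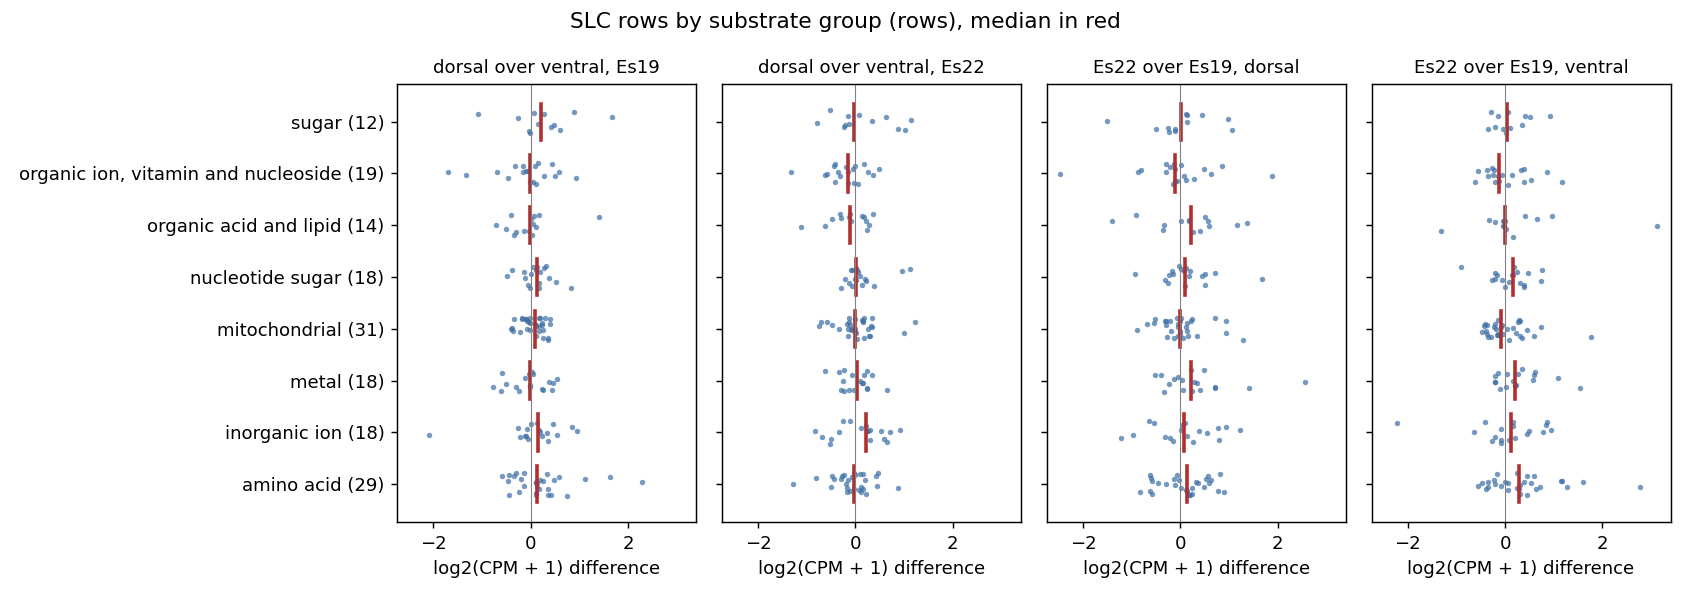
Log2(CPM + 1) differences of the 159 tested SLC rows by substrate group, with 1 panel for each comparison, 1 point for each row and the group median as a red bar. The medians lie near 0 in every panel, and the widest points are single genes such as SLC16A12 and SLC6A4 in the ventral stage panel.

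The 31 SLC25 rows were the most numerous family. On the log2(CPM + 1) scale 29 to 31 of them stayed within 2-fold in each comparison. The share of all rows within 2-fold was 89.4 to 95.4%. SLC25A4, the ADP/ATP exchanger best known in heart and skeletal muscle, was the member with the largest change in ventral dermis, at 1.08, 0.94997, 2.98 and 5.67 CPM in library order. Its Es22 level was 5.97 times that at Es19 in ventral dermis (95% interval 3.28 to 11.6) on 14 and 55 reads, with a limma adjusted p of 0.084. The summed skeletal muscle genes were also highest in Es22 ventral dermis, and their part in this value was not tested. SLC25A48 was at 3.25, 2.31, 5.96 and 2.48 CPM.

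The 18 SLC35 rows belong to a family that holds nucleotide-sugar carriers, other carriers and orphans. The 2-fold limits here are on the log2(CPM + 1) scale. All 18 stayed within 2-fold between regions at Es19, beside 94.6% of all rows, and between stages in ventral dermis, beside 92.5%. Between regions at Es22 17 of 18 did, beside 95.4% of all rows. Between stages in dorsal dermis it was also 17 of 18, beside 89.4%, and SLC35F4 was the exception in each. SLC35B1, the ATP carrier of the endoplasmic reticulum, was at 116, 126, 104 and 109 CPM in library order, and SLC35E1 at 84.7, 76.9, 96.6 and 90.8 CPM. SLC35B2, which brings the sulphate donor PAPS into the Golgi, was at 54.2, 47.8, 43.1 and 45.7 CPM. SLC35G2 was the lowest in stage difference in this family, at 3.48, 2.99, 1.35 and 1.13 CPM, with an adjusted p of 0.12 by limma. With a pseudocount of 0.1 SLC35G2 passed 2-fold downwards and SLC35F4 upwards between stages in both regions.

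The remaining rows named for their CPM varied by less than 2-fold across the 4 libraries. SLC38A10 was at 258, 186, 295 and 281 CPM and SLC12A4, a potassium-chloride cotransporter, at 152, 129, 163 and 176 CPM in library order. SLC44A1, a choline carrier, was at 112, 74.4, 107 and 108 CPM and SLC50A1, a sugar efflux carrier, at 66.3, 62.9, 71.7 and 84.4 CPM. SLC10A3, of the bile acid carrier family, and SLC27A1, which takes up fatty acids, were nearly level. SLC10A3 was at 68.3, 68.3, 77.1 and 66.4 CPM and SLC27A1 at 25.7, 28.5, 25.8 and 28.5 CPM. The riboflavin carrier SLC52A1 was at 86.9, 81.0, 75.1 and 102 CPM, and SLC4A1AP, which is no carrier, at 82.6, 86.8, 108 and 91.5 CPM.

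Among rows of a few CPM, SLC10A4 was at 0.310, 1.15, 2.402 and 3.20 CPM in library order, with 4 reads in the lowest library. SLC45A1 was at 2.09 and 0.679 CPM (dorsal, ventral) at Es19, against 1.63 and 0.310 CPM at Es22, so that both dorsal libraries were above both ventral libraries. The ratio of dorsal to ventral was 3.08 (95% interval 1.45 to 7.13) at Es19 and 5.28 (1.53 to 28.1) at Es22. SLC47A2, an efflux carrier of drugs and toxins, was at 7.97, 5.63, 4.13 and 3.302 CPM, with both Es19 libraries above both Es22 libraries.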

How the data were processed

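RNA was extracted with Trizol and libraries were made with a kit that does not mark strand. Per the labels the deposited signal is CPM scaled by TMM factors, from TopHat2 2.1.0, Partek 3, HTSeq and edgeR, and the study's methods also name STAR; replicate samples are mentioned there, but 1 library for each region and stage was analysed here. In each library 99.77 to 99.95% of values were whole multiples of 1 read within 0.05, so reads were recovered. Rows averaging 1 CPM or more were tested with limma 3.58.1 (R 4.3.3) on log2(CPM + 1), with terms for region and stage, an intensity trend and 1 residual degree of freedom, adjusted by Benjamini-Hochberg over 10236 rows at 0.05. The alternatives were edgeR 4.0.16 quasi-likelihood on recovered reads, pseudocounts of 0.1 and 5, a mean of 5 CPM or no filter, rescaling, a 4-fold rule and leaving out each library. Script steps ran in Python 3.11.15, and the limma and edgeR fits were tested on simulated data.

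Members, substrate groups and gene lists were chosen with earlier results of these data known. Genes named were those called, those 2-fold apart in both comparisons, the 5 highest and 5 lowest in each comparison, the 3 highest CPM in each substrate group, and partner chains; SLC12A9, SLC35F1, SLC45A2, SLC24A5, the genes called by edgeR alone and further family members were named after their values were seen. The part of the rule that used level per coding length was not applied, since coding lengths were not used here.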

Additional observations from a re-analysis of the deposited data

Results flagged for a closer look

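SLC16A12, a creatine carrier, moved in opposite directions between regions at the 2 stages. The log2(CPM + 1) difference of dorsal over ventral dermis was 1.41 at Es19 and -1.12 at Es22, each from 1 library a side. The difference between the stages was not tested, since the 4 libraries leave no error for such a term. The Es19 ventral value rested on 2 reads, which is under the floor of 3 reads, and the other libraries held 26, 37 and 86 reads.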

How the results depend on the processing

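The count of 3 SLC genes called by stage was 8 with a pseudocount of 0.1, 1 (SLC16A4) with a pseudocount of 5, 5 with a mean of at least 5 CPM, 10 with edgeR on recovered reads, 0 without region as a term and 0 to 1 when 1 library was left out. Leaving out Es22 dorsal or Es22 ventral gave 0, leaving out Es19 ventral left SLC39A8 and leaving out Es19 dorsal gave SLC6A4 alone. Over these settings and rescaling the adjusted p ranged from 0.011 to 0.43 for SLC16A4, from 0.018 to 0.44 for SLC2A10 and from 0.023 to 0.44 for SLC39A8, each in 1 direction throughout. No SLC gene was called by region in any setting, where the unadjusted p was under 0.05 for 5 to 21 genes. The count past 2-fold towards dorsal dermis at both stages was 2 with a pseudocount of 0.1 and 0 with a pseudocount of 5 or a 4-fold rule, and that in ventral dermis was 2 with a pseudocount of 0.1. The count 2-fold higher at Es22 in both regions was 7 with a pseudocount of 0.1 and 0 with a pseudocount of 5 or a 4-fold rule, and the count lower was 3 with a pseudocount of 0.1 and 0 with a 4-fold rule. With 1 library left out these rules used a single comparison, and the counts were 5 to 5, 3 to 4, 9 to 10 and 2 to 4 in the order given. Over the settings the SLC median of dorsal over ventral ranged from 0.0514 to 0.083 at Es19 and from -0.0244 to 0.0046 at Es22. That of Es22 over Es19 ranged from 0.019 to 0.0606 in dorsal and from 0.0519 to 0.0681 in ventral dermis. The fits with 1 library left out also had a single term, so the library and the model changed together. The cause of these changes was not tested. The fit with both terms compared the regions within each stage. The labels do not say whether the dorsal and ventral libraries shared embryos, so no pairing by embryo was made. Each value rests on 1 library, so spread between animals was not measured, and values under 3 reads lie within counting error of 0.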
